A study of Arabidopsis thaliana with 12 samples.

Results

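PSAN, LHB1B2 and LHCB4 are nuclear genes for proteins of the 2 photosystems of the chloroplast, and 3 of the 3439 spots of an expression array reported on them in Arabidopsis thaliana. A spot was taken as a member if its annotation named PSAN (AT5G64040) alone, LHB1B2 (AT2G34420) alone, or the genes LHCB4.1 (AT5G01530), LHCB4.2 (AT3G08940) and LHCB4.3 (AT2G40100) with no other gene. This gave spot 85 for PSAN, spot 2665 for LHB1B2 and spot 3446 for the LHCB4 genes, together 5 genes of the 2293 that the annotation of the array names. The reading of spot 3446 cannot be divided among its 3 genes. Total RNA was compared between 6 samples of the tpt1 mutant and 6 samples of the wild type (WT), numbered 1 to 6 in each group, and both groups were of ecotype Wassilevskija. The tpt1 plants are described as having strongly reduced transport of triose phosphate by their chloroplasts, and no treatment, age, tissue or growth condition is named for either group. Nothing in the sources used here tells separate plants from repeat measurements among the 6 samples of a group, so the spread behind the p-values may be technical.

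In photosynthesis, light is collected by antenna proteins that bind chlorophyll and pass the energy to the reaction centres of photosystem II and photosystem I. PSAN encodes PSI-N, a small subunit on the lumenal side of photosystem I, where plastocyanin delivers electrons. LHB1B2, also called LHCB1.5, encodes an Lhcb1 protein of LHCII, the abundant trimeric antenna, and the LHCB4 genes encode CP29, a monomeric antenna protein that sits between LHCII and the core of photosystem II. The triose phosphate/phosphate translocator, whose activity tpt1 lacks for the most part, exports the carbon fixed with the energy these complexes capture. No sequence of these genes or of the array's spots was used here.

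The deposited intensities lie on a linear scale with a ceiling of 100, and their distribution differed between the groups as a whole. Sample medians of log2 intensity, zeros left out, ranged from -1.42 to -0.88 in tpt1 and from -2.38 to -1.72 in WT. The share of the summed intensity in the 10 brightest spots ranged from 14.5% to 19.7% in tpt1 and from 26.3% to 32.2% in WT, so bright spots and dim spots shifted in opposite directions between the groups. For this reason each member is given on the deposited scale, after quantile normalization, and against spots that were about as bright in WT. Samples with neighbouring numbers (1 and 2, 3 and 4, 5 and 6) correlated across spots at 0.24 to 0.75 in tpt1 and at -0.06 to 0.28 in WT once the group means were subtracted, and the members are therefore also given by these 3 pairs of numbers. None of the members had a value at 0 or at the ceiling, and all 3 entered every fit. None of the 10 marker genes of roots, flowers and seeds that were looked up had a spot of its own, and the tissue, which the labels do not name, was not checked further.

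The photosystem I gene PSAN was less bright in 4 of the 6 tpt1 samples than in any WT sample. PSAN gave intensities of 8.76, 8.33, 4.41, 5.23, 3.82 and 3.82 in tpt1 samples 1 to 6, against 9.75, 8.53, 9.06, 8.52, 7.02 and 7.24 in WT samples 1 to 6. The tpt1 samples 1 and 2 lay inside the WT range, and tpt1 samples 3 to 6 lay below its lowest value, so the groups overlapped. The mean was 5.73 ± 2.25 in tpt1 and 8.35 ± 1.05 in WT (SD, n = 6 each), a ratio of tpt1 over WT of 0.686. As a share of the summed intensity of the array, PSAN held 0.132% to 0.247% in tpt1 and 0.249% to 0.282% in WT, and these ranges did not overlap. Of the 2383 spots above 0 in all samples, which are of every brightness, 1.8% had every tpt1 share below every WT share. Of the 40 spots compared with PSAN for like WT brightness, 33 had a lower mean log2 intensity in tpt1.

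After quantile normalization the log2 change of PSAN, tpt1 minus WT, was -0.45 (SE 0.18, 95% interval -0.84 to -0.06) and did not pass (limma, adjusted by Benjamini-Hochberg over the 2849 spots tested, adjusted p = 0.13). It passed as lower once sample numbers were fitted as a block (limma adjusted p = 0.0437), where 14.3% of all tested spots did so. It did not pass with the neighbouring numbers averaged and their pair as a block (limma adjusted p = 0.198) or with those numbers as a random block (0.288). On the deposited scale the change was -0.62 (SE 0.22, limma adjusted p = 0.0296), and 2.56% of tested spots were called lower there. With each array centred on its median it was -1.48 (limma adjusted p = 3.26e-05), and 12.5% of spots were called lower. PSAN was below WT in each of these scalings, while the median change of all tested spots was 0.86 on the deposited scale, 0.08 after quantile normalization and 0.00 with median centring.

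The antenna gene LHB1B2 was among the brightest spots of the array and was less bright in every tpt1 sample than in every WT sample. LHB1B2 gave intensities of 45.4, 24.7, 42.3, 41.9, 17.7 and 18.6 in tpt1 samples 1 to 6, against 53.4, 48.6, 50.4, 49.6, 49.9 and 52.4 in WT samples 1 to 6. The WT samples lay close together, whereas tpt1 samples 2, 5 and 6 were far below them and tpt1 samples 1, 3 and 4 lay just under the WT range. The mean was 31.8 ± 12.8 in tpt1 and 50.7 ± 1.82 in WT (SD, n = 6 each), a ratio of tpt1 over WT of 0.626. The groups did not overlap, as was the case, with tpt1 lower, for 1.89% of the 2383 spots above 0 in all samples. That count takes in spots of every brightness, while 25 of the 30 spots compared with LHB1B2 for like WT brightness were lower in tpt1. The share of the summed intensity held by LHB1B2 was 0.631% to 1.28% in tpt1 and 1.42% to 1.89% in WT. These ranges did not overlap either, which held, with tpt1 lower, for 1.8% of the 2383 spots.

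**Figure D1:**
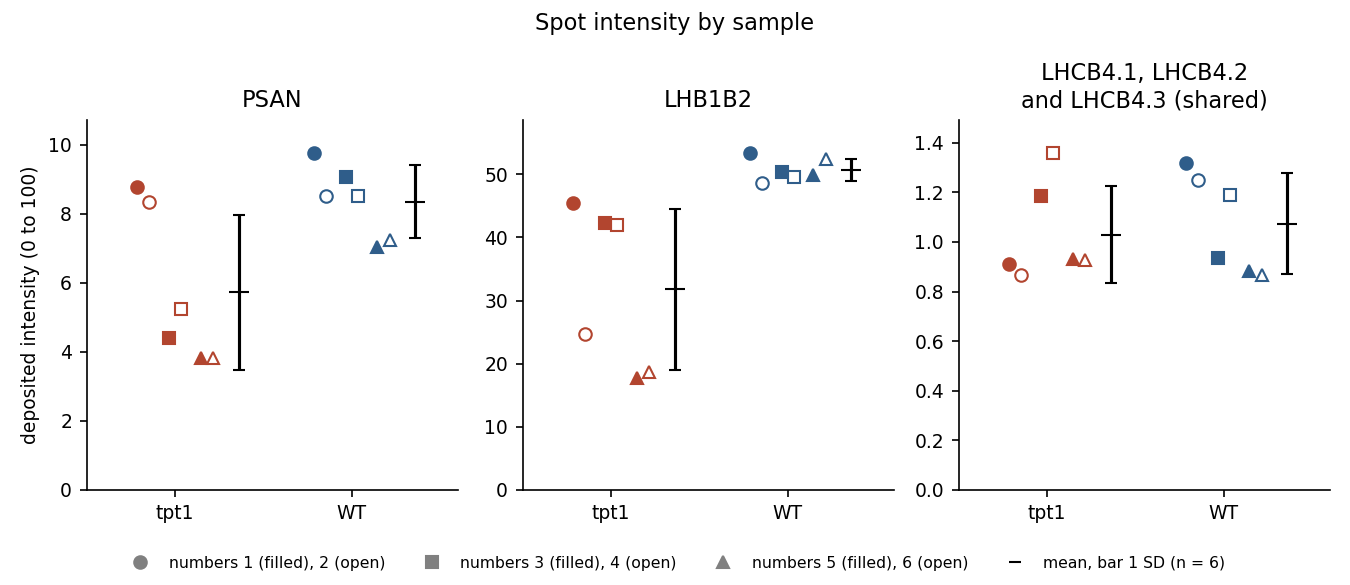
Deposited intensity (0 to 100, linear axis from 0) of the 3 spots in each tpt1 and WT sample, with the mean and 1 SD (n = 6) in black; symbols mark neighbouring sample numbers. LHB1B2 lies between 17.7 and 45.4 in tpt1 and between 48.6 and 53.4 in WT, PSAN overlaps in tpt1 samples 1 and 2, and the shared LHCB4 spot overlaps throughout.

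On the deposited scale the log2 change of LHB1B2 was -0.78 (SE 0.24, limma adjusted p = 0.0166), and with median centring it was -1.64 (limma adjusted p = 0.00024). After quantile normalization it was -0.12 (SE 0.19, 95% interval -0.53 to 0.29, limma adjusted p = 0.743), so the call depends on the scaling. By rank within the array, LHB1B2 was the 8th to 21st brightest spot in tpt1 and the 11th to 13th in WT. Its rank was 8, 21, 11, 10, 18 and 19 in tpt1 samples 1 to 6, and the tpt1 ranks therefore lay on both sides of the WT ranks. PSAN ranked 49th to 85th in tpt1 and 48th to 55th in WT.

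The shared LHCB4 spot was much dimmer and showed the opposite dependence on scale. It gave intensities of 0.911, 0.865, 1.18, 1.36, 0.932 and 0.928 in tpt1 samples 1 to 6, against 1.32, 1.25, 0.936, 1.19, 0.881 and 0.868 in WT samples 1 to 6. The groups overlapped over nearly the whole range, with a mean of 1.03 ± 0.196 in tpt1 and 1.07 ± 0.202 in WT (SD, n = 6 each). On the deposited scale its log2 change was -0.060 (SE 0.16, 95% interval -0.41 to 0.29, limma adjusted p = 0.759). Its rank on the array was 324 to 854 in tpt1 and 265 to 373 in WT.

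After quantile normalization the LHCB4 spot was called lower in tpt1, 1.51-fold by a fitted log2 change of -0.60 (SE 0.17, limma adjusted p = 0.0361). Its normalized log2 intensity averaged -0.30 ± 0.38 in tpt1 and 0.30 ± 0.15 in WT (SD, n = 6 each). With 6.39% of tested spots called lower in this fit, it was the 1 of the 3 members that passed. The call was kept when tpt1 3 (adjusted p = 0.0362), tpt1 4 (0.0128) or WT 3 (0.0373) was left out, and lost when any 1 of the other 9 samples was left out, at limma adjusted p of 0.0511 to 0.073. It was also lost with the neighbouring numbers as a random block (limma adjusted p = 0.134) and with those numbers averaged and their pair as a block (limma adjusted p = 0.104).

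**Figure D2:**
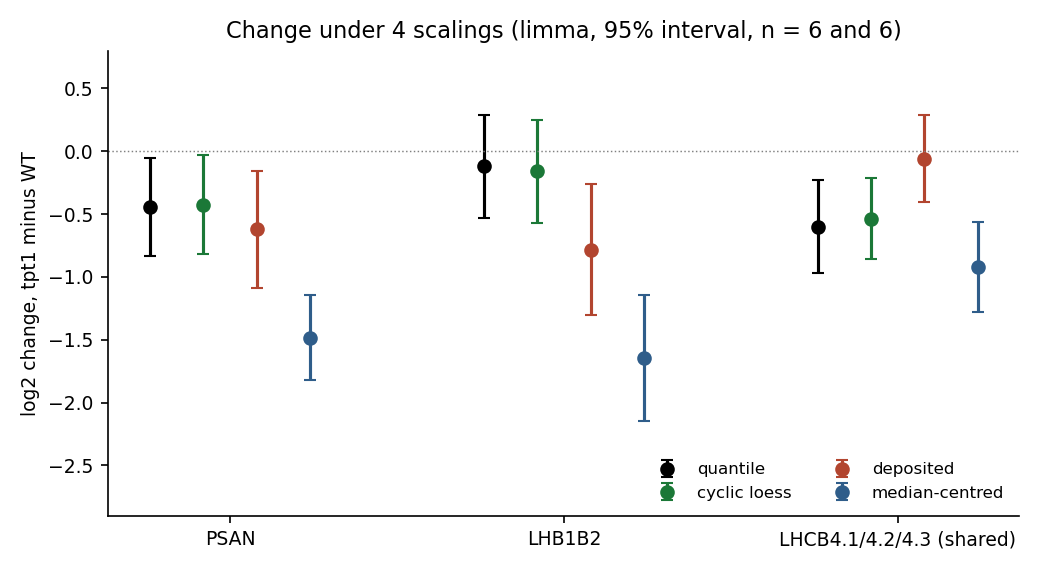
Log2 change, tpt1 minus WT, of the 3 spots under 4 scalings of the arrays, with limma's 95% interval (n = 6 and 6). All 12 points lie below 0, with the shared LHCB4 spot close to 0 on the deposited scale and LHB1B2 close to 0 after quantile normalization and cyclic loess.

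The next question was whether the members differed from spots of similar brightness. Each was set against the 20 spots next brighter and the 20 next dimmer by mean WT log2 intensity, taken from the spots above 0 in all samples. Only 10 spots were brighter than LHB1B2, which left it 30 neighbours, and 7 of these reached the ceiling in at least 1 sample, where a difference between the groups is cut off. In the neighbourhood of PSAN the WT means ran from 5.50 to 19.0, and in that of LHCB4 from 0.973 to 1.13. For LHB1B2 they ran from 19.0 to 100, so its neighbours were matched only loosely.

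On the deposited scale the neighbours of the bright members were themselves lower in tpt1. The median log2 change of the 40 neighbours of PSAN was -0.35 with quartiles of -0.66 and -0.16, and 33 of them lay below 0. PSAN at -0.62 was lower than most of them, with 12 of the 40 lower still. The median change of the 30 neighbours of LHB1B2 was -0.62 with quartiles of -0.90 and -0.38, and 25 lay below 0. LHB1B2 at -0.78 had 11 of the 30 below it. The neighbours of the LHCB4 spot had a median change of 0.31 with quartiles of -0.08 and 0.57. The LHCB4 spot at -0.060 had 12 of 40 neighbours below it, and 8 of these 40 were called lower after quantile normalization.

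**Figure D3:**
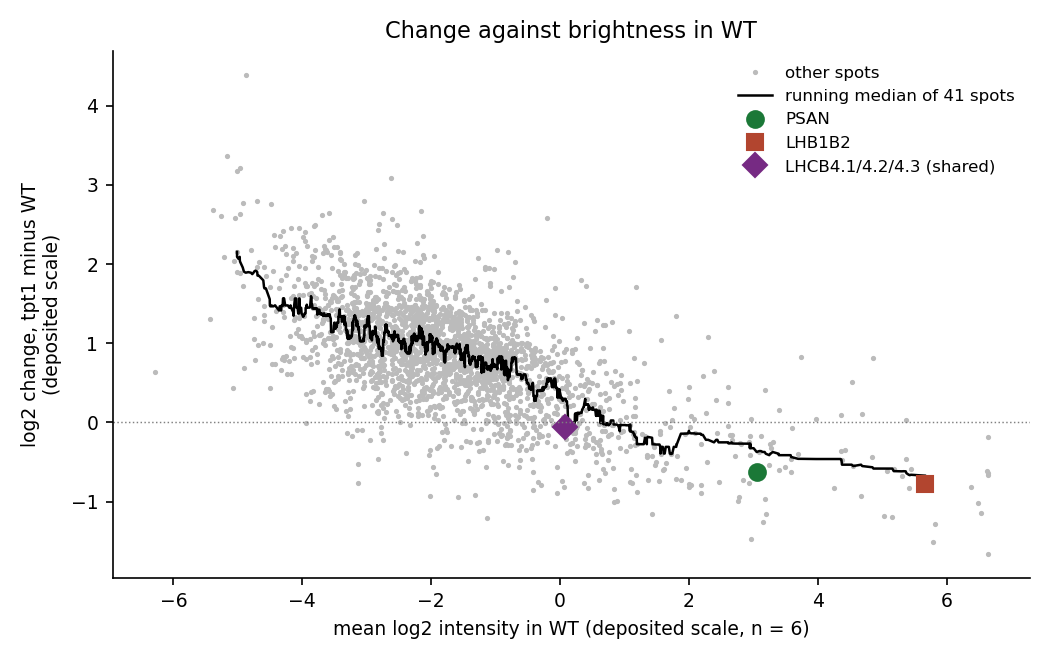
Log2 change, tpt1 minus WT, on the deposited scale (vertical axis) against the mean log2 intensity in WT (horizontal axis) for the 2383 spots above 0 in all samples, with a running median in black. The running median falls from above 1 among dim spots to below 0 among bright ones, and PSAN, LHB1B2 and the shared LHCB4 spot lie slightly under it at -0.62, -0.78 and -0.060.

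To compare samples, the median log2 intensity of a member's neighbours was subtracted from that of the member in each sample. For PSAN this gave 0.40, 0.30, -0.64, -0.43, -0.67 and -0.56 in tpt1 samples 1 to 6, and values between -0.11 and 0.08 in the 6 WT samples. PSAN was therefore above its neighbours in tpt1 samples 1 and 2, more so than in any WT sample, and below them in tpt1 samples 3 to 6, more so than in any WT sample. The mean difference, tpt1 minus WT, was -0.23 (95% interval -0.62 to 0.32) and did not pass (two-sided exact permutation test over 6 and 6 samples, p = 0.264, 0.264 after adjustment over the 3 members). Its size moved with the spots it was set against, to -0.093 with 10 on each side and -0.37 with 50 (exact permutation, adjusted p = 0.675 and 0.0628).

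For LHB1B2 the difference from its neighbours was 0.53, -0.31, 0.37, 0.32, 0.05 and -0.14 in tpt1 samples 1 to 6 and lay between 0.17 and 0.89 in WT. The groups overlapped, with WT 5 and WT 6 the highest of all. The mean was 0.14 ± 0.33 in tpt1 and 0.46 ± 0.32 in WT (SD, n = 6 each), a difference of -0.32 (95% interval -0.76 to 0.12, exact permutation p = 0.11, adjusted 0.166). The lower intensity of LHB1B2 in tpt1 was thus not shown to go beyond that of other bright spots. The difference was -0.48 with 50 spots on each side and -0.15 on quantile normalized values, and neither passed (exact permutation, adjusted p = 0.0617 and 0.489).

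For the LHCB4 spot it was -0.71, -0.74, -0.18, 0.02, -0.49 and -0.58 in tpt1 samples 1 to 6 and lay between -0.24 and 0.18 in WT. The tpt1 samples 1, 2, 5 and 6 lay below every WT sample, and tpt1 samples 3 and 4 lay inside the WT range. The difference of -0.43 (95% interval -0.73 to -0.09) had an exact permutation p of 0.0195, which missed the threshold after adjustment over the 3 members (0.0584). It passed when the neighbours were matched on the mean over all 12 samples, at -0.62 (exact permutation test, adjusted p = 0.0195), and without tpt1 4, at -0.52 (adjusted p = 0.013). With 10 spots on each side it was smaller, at -0.30, and with 50 it was -0.34 (exact permutation, adjusted p = 0.227 and 0.0617). Neither passed, nor did the difference with the groups exchanged only within numbers (exact test, adjusted p = 0.281). With that exchange the exact p cannot go below 0.03125, so a single member cannot pass by itself after adjustment over the 3 members.

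**Figure D4:**
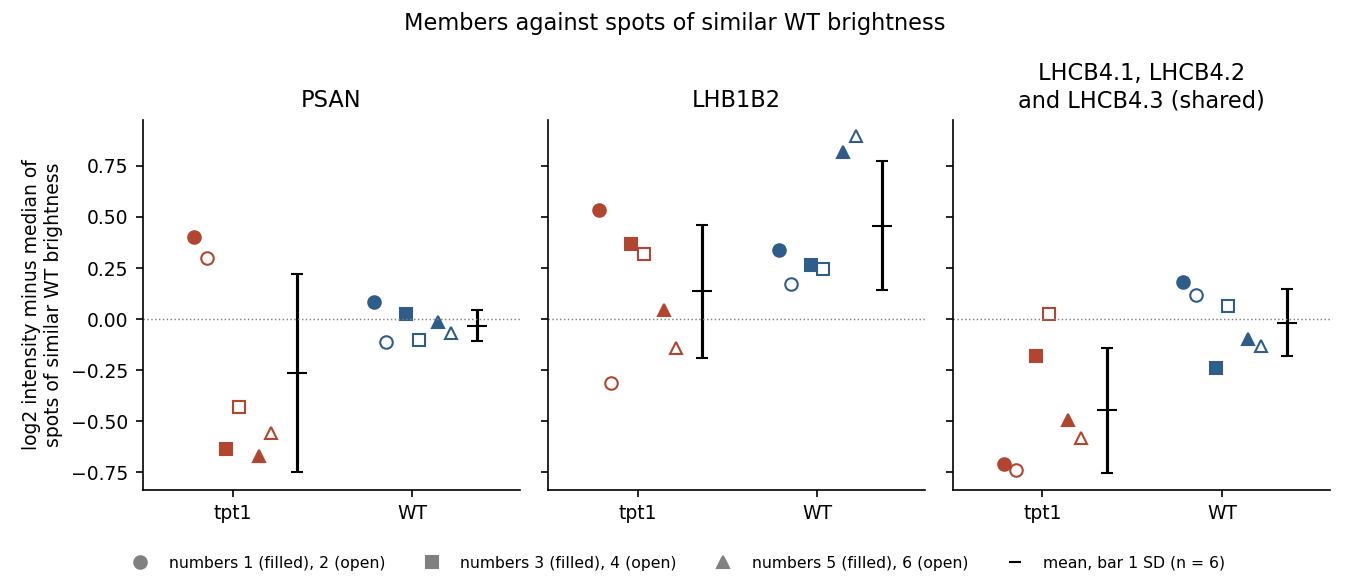
Log2 intensity of each member minus the median log2 intensity of spots of similar WT brightness in the same sample, for tpt1 and WT, with the mean and 1 SD (n = 6) in black; symbols mark neighbouring sample numbers. PSAN runs from -0.67 to 0.40 in tpt1 against -0.11 to 0.08 in WT, and the LHCB4 spot has 4 tpt1 samples below all WT samples.

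The 3 members were not alike across the neighbouring numbers. In numbers 1 and 2, PSAN averaged 8.55 in tpt1 and 9.14 in WT, a log2 change of -0.09, where its neighbours had a median change of -0.44. In numbers 3 and 4 it averaged 4.82 in tpt1 and 8.79 in WT, a change of -0.87 against a neighbour median of -0.44. In numbers 5 and 6 it averaged 3.82 in tpt1 and 7.13 in WT, a change of -0.90 against -0.36. Leaving numbers 1 and 2 out of both groups gave PSAN a quantile-normalized change of -0.68 (limma adjusted p = 0.00884). The fit that omitted 3 and 4 gave -0.33 (limma adjusted p = 0.497), and the one that omitted 5 and 6 gave -0.32 (0.376). Without tpt1 1 alone it was -0.56 (limma adjusted p = 0.0429). Leaving out pairs of numbers was chosen after the values had been seen.

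LHB1B2 averaged 35.04 in tpt1 and 51.0 in WT in numbers 1 and 2, a log2 change of -0.61 where its neighbours had -0.52. In numbers 3 and 4 it averaged 42.1 in tpt1 and 50 in WT, a change of -0.25 where its neighbours had -0.41. In numbers 5 and 6 it averaged 18.1 in tpt1 and 51.1 in WT, a change of -1.495 where its neighbours had -0.80, and 2 of its 30 neighbours were lower in those numbers. Its quantile-normalized change was -0.16 when numbers 1 and 2 were omitted (limma adjusted p = 0.725), -0.34 when 3 and 4 were (0.552) and 0.062 when 5 and 6 were (0.854).

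The LHCB4 spot had its lowest change in numbers 1 and 2, where PSAN had its highest. There it averaged 0.888 in tpt1 and 1.29 in WT, a log2 change of -0.53 where its neighbours had 0.26, and 2 of its 40 neighbours were lower. In numbers 3 and 4 it averaged 1.27 in tpt1 and 1.06 in WT, a change of 0.26 where its neighbours had 0.22. In numbers 5 and 6 it averaged 0.93 in tpt1 and 0.874 in WT, a change of 0.09 where its neighbours had 0.52. With numbers 1 and 2 omitted the quantile-normalized change was -0.34 (limma adjusted p = 0.282), with 3 and 4 omitted -0.86 (0.0174) and with 5 and 6 omitted -0.59 (0.105). The sources used here do not say what a number marks, and differences between the pairs of numbers were not tested.

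**Figure D5:**
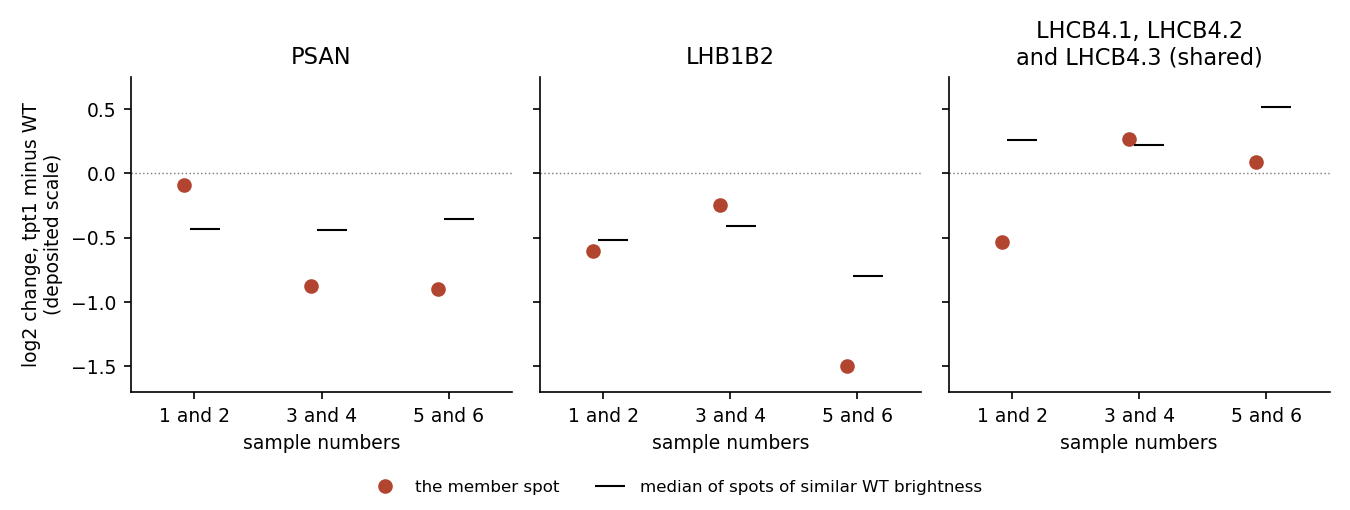
Log2 change, tpt1 minus WT, on the deposited scale for each pair of neighbouring sample numbers (means of 2 tpt1 and 2 WT samples), for the member spot (red) and the median of its spots of similar WT brightness (black bar). PSAN is lowest in numbers 3 and 4 and 5 and 6, LHB1B2 in 5 and 6, and the shared LHCB4 spot in 1 and 2.

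Neighbouring numbers agreed closely for most readings of the members but not for LHB1B2 in tpt1. The log2 gap between tpt1 1 (45.4) and tpt1 2 (24.7) was 0.88 for LHB1B2, against a median gap of 0.07 among its 30 neighbours, none of which had a larger one. Of the 2383 spots above 0 in all samples, 30 had a larger gap between these samples. In WT the gap of LHB1B2 between numbers 1 and 2 was 0.14, and in tpt1 it was 0.01 between numbers 3 and 4 and 0.07 between 5 and 6. For PSAN the largest gap was 0.25, between tpt1 3 and tpt1 4, and for the LHCB4 spot it was 0.35, between WT 3 and WT 4.

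Whether one member changed more than another was tested on the difference of their log2 intensities within each sample. A single scaling factor of the array cancels in it, but a shift that depends on brightness does not. On the deposited scale the median change of the neighbours was -0.62 for LHB1B2, -0.35 for PSAN and 0.31 for the LHCB4 spot. Spots as bright as LHB1B2 or PSAN thus moved down against spots as bright as LHCB4, and these tests do not separate that shift from a change of the member. The change of LHB1B2 was below that of the LHCB4 spot by 0.72 on the deposited scale (LHB1B2 minus LHCB4, -0.72, 95% interval -1.26 to -0.19, two-sided exact permutation p = 0.0152, adjusted over 3 pairs 0.0455), with 5 of 6 numbers in this direction. After quantile normalization the same difference was 0.48 in the other direction (exact permutation, adjusted p = 0.00649), and with the groups exchanged only within numbers the deposited difference did not pass (exact p = 0.0625, adjusted 0.188). With that exchange the exact p cannot go below 0.03125, so a single pair cannot pass by itself after adjustment over 3 pairs. The deposited result was kept without tpt1 1, tpt1 2 or tpt1 3 and lost without any 1 of the other 9 samples. The difference of PSAN minus LHCB4 was -0.56 on the deposited scale (95% interval -1.11 to 0.18, exact permutation p = 0.0606, adjusted 0.0909) and did not pass. It passed without tpt1 1 or without tpt1 2 (adjusted p = 0.0455 for each exact test). On quantile normalized values its sign turned, to 0.15 (exact permutation, adjusted p = 0.595). The difference of PSAN minus LHB1B2 was 0.16 on the deposited scale (95% interval -0.43 to 0.73, exact permutation p = 0.561, adjusted 0.561), an interval that still allows a sizeable difference. Its sign turned as well, to -0.33 on quantile normalized values (exact permutation, adjusted p = 0.341).

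Across the 12 samples on the quantile-normalized log2 scale, PSAN and LHB1B2 correlated at 0.25, PSAN and the LHCB4 spot at 0.08, and LHB1B2 and the LHCB4 spot at 0.33. After subtraction of the group means PSAN and the LHCB4 spot were at -0.69, which is the opposite course by number described above. These are descriptions over samples that share arrays and numbers.

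The 3 single-gene spots most like each member were found by Pearson correlation over the 12 samples, among 477 or 478 such spots above 0 in all samples. Those most like PSAN were AT2G38070 (r = 0.89), AT1G31790 (0.84) and AT3G15140 (0.81). Those most like LHB1B2 were AT5G06990 (0.59), AT1G74470 (0.57), which encodes the geranylgeranyl reductase of chlorophyll synthesis, and AT1G64430 (0.57). Those most like the LHCB4 spot were PRK (0.94), which encodes phosphoribulokinase of carbon fixation, AT2G04700 (0.88), the catalytic subunit of ferredoxin-thioredoxin reductase, and AT1G54500 (0.83). These correlations include the difference between the groups. With the group means subtracted, those with the LHCB4 spot were 0.87 for PRK, 0.72 for AT2G04700 and 0.62 for AT1G54500. In the order above, those with PSAN were then 0.84, 0.73 and 0.71, and those with LHB1B2 0.58, 0.57 and 0.57. Each spot was picked for its correlation over these same samples, so these values are not independent evidence. Functions are named for only some of these genes. AT2G04700 is spot 3436 and the LHCB4 spot is 3446, and whether close numbers share a course was not tested.

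Of 62 genes in lists of photosystem, antenna, electron transport and photosystem I assembly genes, 6 had a spot of their own, and the LHCB4 spot was the 1 spot shared only by genes of a list. None of these 7 spots was called higher after quantile normalization and 2 were called lower, the LHCB4 spot and PSBY, where 6.39% of all tested spots were called lower. Their median log2 change was -0.12, against 0.08 over all tested spots. The 7 spots include the members, and this median is the value of LHB1B2 itself. The other spots were at -1.08 (PSBY), 0.22 (PSB27), 0.48 (PSBW) and 1.91 (AT1G22700), so a median below 0 depends on including the members. No other gene of the 12 in the photosystem I list, none of the 6 LHCA antenna genes, and no other gene of the 15 in the photosystem II antenna list had such a spot. Among the small photosystem II subunits, on the deposited scale PSBY was at -0.76 with 2 of 40 neighbours of similar WT brightness below it. PSBW was at 0.09, above most of its neighbours, with 34 of 40 below it, and PSB27 was at 0.51 with 31 of 40 below it. AT1G22700, which encodes a tetratricopeptide protein of photosystem I assembly (PYG7), gave 0.663 to 1.34 in tpt1 and 0.00287 to 0.465 in WT. Its lowest WT value was close to 0, against a WT median of 0.385. On the deposited scale it changed by 2.57 (limma adjusted p = 0.056), with 39 of 40 neighbours below it. Those neighbours also rose, by a median of 1.04. How many spots had every tpt1 value above every WT value was not counted. The quantile-normalized change of AT1G22700, 1.91, had an SE of 1.09 and did not pass (limma adjusted p = 0.299).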

How the data were processed

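The authors deposited 1 table of spot intensities for 12 array samples, 6 of tpt1 and 6 of WT, on a linear scale that ends at 100. No source used here describes spot reading, background correction or scaling before deposit. How the values were scaled to that ceiling, their centring and the meaning of a 0 are therefore unknown. The number of arrays limits the precision. Genes were named from the platform annotation, through a reference table of assembly TAIR10.1 used for names only, in which 690 of 692 spots with 1 gene had a locus.

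Zeros were set as missing and values taken as log2. Because sample medians lay more than 0.1 apart, arrays were quantile normalized. Spots with at least 4 values above 0 in each group, 2849 in all, were fitted across all spots with limma 3.58.1 (lmFit and eBayes with trend, statmod 1.5.0, R 4.3.3), with Benjamini-Hochberg adjustment and a threshold of 0.05. Intervals of exact permutation tests (Python 3.11.15) invert the test at 95%. The fit and the exact test were checked on simulated data. Those for the fit were drawn independently for each sample, whereas the random-block fit put the correlation of neighbouring numbers at 0.63. That check therefore does not cover the likeness of neighbouring numbers.

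Same-numbered samples correlated at 0.47 to 0.61 after subtraction of the group means, and 12 of 12 correlated best with their own number, so the numbers were taken to pair the samples (the rule asks for every pair above 0.1), although no label says what a number marks. The unpaired fit was the main one, with the number as a block as an alternative. Named are the members, every listed photosynthesis gene with a spot of its own or shared within its list, and the 3 single-gene spots most correlated with each member. The members, lists and alternatives were chosen with earlier results of these data known.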

Additional observations from a re-analysis of the deposited data

How the results depend on the processing

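The direction of each member's change after quantile normalization was kept in 24 of 24 alternatives for PSAN and for LHCB4 and in 23 of 24 for LHB1B2, the exception being the fit without numbers 5 and 6 (0.06). The fits with a block, with averaged neighbouring numbers or with no trend in the prior variance leave the estimate unchanged, so the direction could not change there. PSAN came to pass (limma) on the deposited scale (-0.62), with median centring (-1.48), with the replicate block (-0.45, adjusted p = 0.0437), without tpt1 1 (-0.56, adjusted p = 0.0429) and without numbers 1 and 2 (-0.68). It did not pass with averaged neighbouring numbers and their pair as a block (limma adjusted p = 0.198) or a random block (0.288). LHB1B2 came to pass on the deposited scale (-0.78) and with median centring (-1.64). LHCB4 lost its call on the deposited scale (-0.060), and at an unchanged -0.60 with averaged neighbouring numbers, those numbers as a random block or no trend in the prior variance (limma adjusted p = 0.0565). It also lost it without numbers 1 and 2 (-0.34) and without numbers 5 and 6 (-0.59, limma adjusted p = 0.105). Leaving out 1 sample gave -0.56 to -0.37 for PSAN, -0.26 to -0.01 for LHB1B2 and -0.72 to -0.52 for LHCB4. The LHCB4 spot kept its call in 3 of these 12 fits.

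Against spots of similar WT brightness, PSAN and LHB1B2 passed in none of 19 alternatives each, but their size moved with the choice of neighbours: PSAN was at -0.093 with 10 spots on each side, -0.37 with 50 and -0.38 with matching on all samples, and LHB1B2 at -0.48 with 50 and -0.15 on quantile normalized values, against -0.23 and -0.32. LHCB4 came to pass with matching on all samples (-0.62), on quantile normalized values (-0.53, exact permutation, adjusted p = 0.039) and without tpt1 4. In 16 of 19 alternatives it did not pass, among them 10 spots on each side (-0.30), 50 on each side (-0.34) and exchange of the groups within numbers (-0.43). Leaving out 1 sample gave -0.37 to -0.15, -0.40 to -0.23 and -0.52 to -0.37 for the 3. On quantile normalized values the difference of LHB1B2 minus LHCB4 turned to 0.48, PSAN minus LHCB4 to 0.15 and PSAN minus LHB1B2 to -0.33. Of these only LHB1B2 minus LHCB4 passed, as on the deposited scale. LHB1B2 minus LHCB4 lost its call with the replicate block or averaged numbers (-0.72 in both). With 3 averaged values a group an exact test cannot go below 0.1. With exchange within numbers it cannot go below 0.03125 before adjustment, so a single result cannot pass by itself after adjustment over 3. Leaving out 1 sample gave -0.88 to -0.60 for LHB1B2 minus LHCB4, -0.73 to -0.46 for PSAN minus LHCB4 and -0.02 to 0.32 for PSAN minus LHB1B2.

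Over all spots, 364 were called, 182 in each direction. The count was 1396 on the deposited scale (94.8% of them higher in tpt1), 489 with median centring (27.2% higher), 906 with the replicate block, 122 with the random block, 180 without numbers 1 and 2, 154 without 3 and 4, 447 without 5 and 6, and 272 to 338 without 1 sample. The cause of these differences was not tested. The replicate block changed no other call of a member.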

Other observations

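Bright spots with numbers close to that of LHB1B2 shared part of its course. Of the 94 spots numbered within 60 of spot 2665, 4 others had a WT mean above 20, a choice made after the values were seen. All 4 were lower in tpt1 5 and tpt1 6, at 10.1 to 16.4, than in tpt1 samples 1 to 4, at 34.3 to 43.7, and stood at 27.1 to 43.6 in WT 5 and WT 6. All 4 were also among the 30 spots of similar WT brightness that LHB1B2 was set against. The median change of those 30 was -0.80 in numbers 5 and 6, against -0.52 in 1 and 2 and -0.41 in 3 and 4. How many bright spots elsewhere on the array were lower in tpt1 5 and tpt1 6 was not counted. Spots 2689, 2709 and 2721 also had their lowest WT value in WT 5 or WT 6, at 37.0, 27.1 and 28.7, against WT highs of 48.5, 56.2 and 66.6. Spot 2677 did not. LHB1B2 was at 17.7 and 18.6 in tpt1 5 and tpt1 6, and at 49.9 to 52.4 in WT 5 and WT 6, inside its narrow WT range. None of the 4 showed its gap between tpt1 1 and tpt1 2, the largest among them being 0.07 on the log2 scale against 0.88 for LHB1B2. The layout of the array was not used here, so whether these spots lie side by side was not tested.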
